A study of Homo sapiens with 12 samples.

Results

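The regions of histone H3.1 enrichment called 24 h after D-alanine were set against those called 4 h after it, and each region was classed as shared, late-only or early-only. A region belonged to the shared class if it overlapped a region of the other list by at least 1 bp on chromosomes 1 to 22 and X of the hg38 build. The 24 h list held 13611 such regions (7.45 Mb) and the 4 h list 7922 (4.24 Mb), together 21533 of the 161322 regions called in all 6 ChIP libraries of the study. A protein-coding gene counted for a list when a region of that list touched the gene or lay up to 2 kb from it.

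Both libraries came from MCF10AER/vSrc cells with the genotype given as WT. MCF10A is an established human line of breast epithelium that does not form tumours, and ER/vSrc stands for the v-Src oncoprotein joined to the hormone-binding part of the estrogen receptor, which makes it inducible. The labels do not say whether v-Src was induced. Chromatin was taken 24 h or 4 h after D-alanine at a labelled dose of 10 nM, and control cells and a second histone, H3.3, were mapped alongside. The dose is printed as labelled, and no other source used here gives it. The design states that D-alanine generated reactive oxygen species in the nucleus and that the H3.1 antibody target was H3.1/H3.2. Each time had 1 ChIP library and 1 input library (sheared chromatin without immunoprecipitation), so differences between times have no replicate check and no test was made.

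Histone H3.1 is placed into chromatin mainly behind the replication fork by the CAF-1 chaperone, whereas H3.3 is placed throughout the cell cycle by HIRA and by DAXX with ATRX. H3.1 carries a cysteine in its core that H3.3 lacks. Active promoters, which are often rich in CpG dinucleotides and in GC boxes bound by Sp1-like factors, are places of rapid nucleosome turnover and are usually described as rich in H3.3.

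The promoters below show the start sites at which the regions were compared. They are RefSeq windows of GRCh38.p14, running from 250 bases before to 50 bases after a transcription start, 5′ to 3′ on the strand of the gene. A pair is shown for each class, the windows whose regions had the highest lower bound of the fold over input, and capitals mark GC boxes (GGGCGG on either strand). RSPH6A (chr19:45815259-45815558, minus strand), a radial spoke protein gene of cilia and flagella, and LAT (chr16:28984553-28984852, plus strand), an adaptor gene of T cell receptor signalling, held a region at both times.
RSPH6A: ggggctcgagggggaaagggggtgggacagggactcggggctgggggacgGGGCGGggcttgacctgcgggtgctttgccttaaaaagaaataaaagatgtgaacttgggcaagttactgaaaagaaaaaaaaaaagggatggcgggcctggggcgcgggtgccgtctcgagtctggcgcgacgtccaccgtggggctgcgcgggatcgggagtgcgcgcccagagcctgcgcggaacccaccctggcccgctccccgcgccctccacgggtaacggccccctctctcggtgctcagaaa
LAT: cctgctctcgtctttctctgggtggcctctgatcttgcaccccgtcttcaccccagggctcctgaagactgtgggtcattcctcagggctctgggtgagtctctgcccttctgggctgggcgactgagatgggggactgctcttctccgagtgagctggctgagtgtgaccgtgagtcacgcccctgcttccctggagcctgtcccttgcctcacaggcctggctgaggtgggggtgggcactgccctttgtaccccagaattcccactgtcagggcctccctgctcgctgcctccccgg
NLRP5 (chr19:55986525-55986824, plus strand), a gene of the oocyte subcortical complex, and DUSP3 (chr17:43778928-43779227, minus strand), a dual-specificity phosphatase gene, held one at 24 h only.
NLRP5: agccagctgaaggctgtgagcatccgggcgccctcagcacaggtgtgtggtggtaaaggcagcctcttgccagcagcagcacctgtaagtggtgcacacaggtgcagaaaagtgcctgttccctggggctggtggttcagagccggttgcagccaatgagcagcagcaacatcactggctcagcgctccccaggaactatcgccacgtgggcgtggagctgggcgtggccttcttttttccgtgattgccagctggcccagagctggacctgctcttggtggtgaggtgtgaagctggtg
DUSP3: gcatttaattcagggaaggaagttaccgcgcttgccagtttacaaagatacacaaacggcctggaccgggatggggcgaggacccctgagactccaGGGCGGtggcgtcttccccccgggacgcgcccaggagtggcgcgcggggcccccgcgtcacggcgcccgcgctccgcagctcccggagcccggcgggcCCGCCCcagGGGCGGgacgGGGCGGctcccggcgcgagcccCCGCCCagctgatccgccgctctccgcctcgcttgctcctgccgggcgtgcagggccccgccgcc
DCHS2 (chr4:154491750-154492049, minus strand), a protocadherin gene, and FUNDC1 (chrX:44542810-44543109, minus strand), a mitophagy receptor gene, held one at 4 h only.
DCHS2: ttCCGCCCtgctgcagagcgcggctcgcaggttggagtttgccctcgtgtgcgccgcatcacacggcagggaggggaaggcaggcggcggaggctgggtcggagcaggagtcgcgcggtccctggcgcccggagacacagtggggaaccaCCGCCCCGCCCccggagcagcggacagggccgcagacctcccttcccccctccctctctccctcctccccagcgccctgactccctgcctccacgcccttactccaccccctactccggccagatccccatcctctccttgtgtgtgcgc
FUNDC1: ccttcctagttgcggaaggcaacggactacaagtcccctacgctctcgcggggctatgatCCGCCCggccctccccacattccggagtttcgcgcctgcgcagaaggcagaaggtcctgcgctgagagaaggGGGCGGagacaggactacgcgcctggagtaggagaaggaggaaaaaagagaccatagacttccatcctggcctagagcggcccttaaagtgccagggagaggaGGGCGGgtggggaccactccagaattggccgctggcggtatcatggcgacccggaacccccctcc

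These windows had unlike base composition. DUSP3 was the richest in GC of the 6 (75% GC, 39 CpG, 5 GC boxes), and LAT had the fewest CpG (8) and no GC box. NLRP5 also had no GC box and 9 CpG. The 24 h region over NLRP5 held 34 ChIP tags and 3 input tags, which is a fold of 12.2 over input (3.84 to 62.1, exact 95% interval), and the one over DUSP3 had a fold of 9.15 (3.26 to 35.5). The 4 h region over DCHS2 held 21 ChIP tags and 1 input tag, a fold of 19.9 (3.20 to 822), and the one over FUNDC1 had a fold of 6.49 (2.92 to 17). The width of these intervals comes from the few input tags. A tag is 1 aligned read position, and the fold is the authors' ratio of ChIP to input tags at equal depth.

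Depth was similar, with 16837079 ChIP tags at 24 h and 17570988 at 4 h. Recovered input depth was about 18100000 tags at 24 h and 16600000 at 4 h. Regions took 1.59% of ChIP tags at 24 h and 0.921% at 4 h. A region that is missing from a list was not called there, which does not show that H3.1 was absent. All intervals given are exact 95% intervals, Clopper-Pearson for shares and conditional binomial for folds, and cover counting error only.

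Few regions were called at both times. Of the 24 h regions, 538 (3.95%, 3.63 to 4.29) overlapped a 4 h region and 13073 (96.0%) did not. Of the 4 h regions, 540 (6.82%, 6.27 to 7.39) overlapped a 24 h region and 7382 (93.2%) did not. They formed 540 pairs, since 2 of the 24 h regions met 2 of the 4 h regions each. The regions of each list that stood alone were mostly far from the other list. The median distance to the nearest region of the other list was 44.2 kb for 24 h-only regions and 21.6 kb for 4 h-only regions, and the longer 24 h list leaves shorter gaps for the 4 h regions to fall in. A gap of at most 1 kb separated 536 of the 24 h-only regions (4.10%) and 522 of the 4 h-only regions (7.07%) from the other list.

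Most regions of both lists lay close to the calling threshold. The required fold over input was 4, and the median fold was 4.74 at 24 h and 4.73 at 4 h. Folds under 5 made up 57.2% of the 24 h list and 59.4% of the 4 h list. Median normalised tags, the ChIP tags per 10000000 tags of the library, were 10.1 at 24 h and 10.2 at 4 h. Shared regions carried more tags than the others of their list, with a median of 11.9 for the shared and 10.1 for the 24 h-only regions, and of 12.5 for the shared and 9.68 for the 4 h-only regions. They were also more often wider than 1 kb, at 5.39% of shared against 1.23% of 24 h-only regions, and at 3.33% of shared against 0.637% of 4 h-only regions. A wide region has more bases to overlap.

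At the threshold of 1 bp, the pairs with the least overlap lay at BRSK2, a neuronal polarity kinase gene (2 bp), between the coagulation factor genes F7 and F10 (4 bp), beside SYT3 and SHANK1 (5 bp), at CHRNA4 (6 bp) and at MUC2 (7 bp). The nearest 4 h regions just outside it had gaps of 1 bp, 2 bp in 3 cases, and 3 bp.

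Where a region was called at both times, neither time had the higher enrichment throughout. Normalised tags were higher at 24 h in 231 pairs and higher at 4 h in 304, with 5 equal, and the median ratio of 24 h to 4 h tags was 0.942 (quartiles 0.714 and 1.23). The ratio was at least 2 in 19 pairs and at most 0.5 in 32. The fold over input was higher at 24 h in 263 pairs and at 4 h in 277, and 0 of 540 pairs had fold intervals that did not overlap. Overlapping intervals do not show that the folds were equal. Among the 281 pairs with both regions 500 bp wide, the caller's usual width, the median ratio was 0.929. Region centres lay a median of 202 bp apart, and 1 pair had the same start and end.

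**Figure D1:**
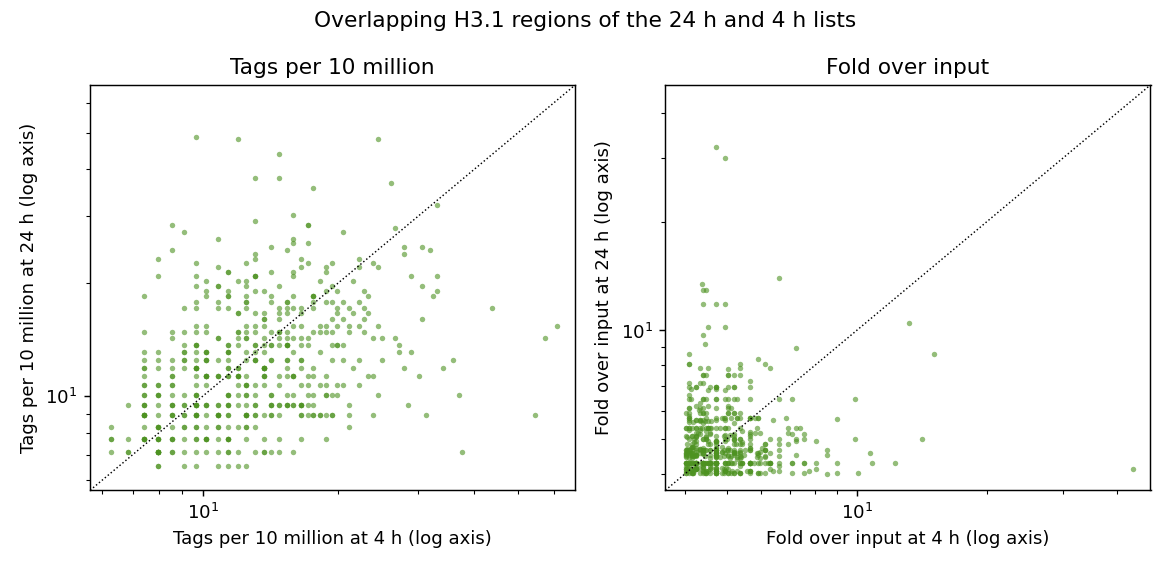
Normalised tags (left, ChIP tags per 10000000 tags of the library, log axes) and fold over input (right, log axes) of the 540 overlapping pairs, with the 24 h value on the vertical and the 4 h value on the horizontal axis; each point is a pair and the dotted line marks equality. Points lie on both sides of the line, with 231 pairs higher at 24 h in tags and 304 higher at 4 h; folds at regions without input tags are the authors' values.

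Pairs were ranked for naming only where a protein-coding gene lay within 2 kb. Among these, the firmest enrichment at both times lay at RSPH6A with SYMPK and at SPNS1 with LAT. Next came AGRN, CACNA1A, NYAP1, CPLX1, UBAC1 and CBFA2T3. Some pairs without such a gene were as firm, and the highest bound of all pairs lay at such a place on chromosome 22. At the promoter of RSPH6A printed above, which is also within 2 kb of the 3′ end of SYMPK, a polyadenylation scaffold gene, the region (chr19:45815121-45815984) held 20.8 normalised tags at 24 h, a fold of 5.38 (2.36 to 14.4). The 4 h region there (chr19:45814932-45815763) held 29.0 normalised tags, a fold of 4.83 (2.42 to 10.7). At LAT and the 3′ end of SPNS1, a lysosomal lipid transporter gene, the values were 24.9 normalised tags and a fold of 4.52 (2.23 to 10.1) at 24 h, against 30.7 normalised tags and a fold of 4.26 (2.25 to 8.74) at 4 h. At both places the 4 h library had more tags and the 24 h library the slightly higher fold, within intervals that overlap.

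CACNA1A, CPLX1 and AGRN have roles at synapses, which was not compared with a share over all genes. In control cells CACNA1A, a gene of 300 kb, held 14 H3.1 regions, CPLX1 4 and AGRN 0. CACNA1A, the pore subunit of P/Q-type calcium channels, held 17.8 normalised tags at 24 h and 19.4 at 4 h, with folds of 8.07 (2.85 to 31.6) and 5.36 (2.23 to 15.6). CPLX1, a complexin gene of vesicle release, held 17.8 at 24 h and 22.2 at 4 h. AGRN, the gene of the synapse-organising proteoglycan agrin, held 19.6 at 24 h and 19.4 at 4 h. Among the rest, UBAC1 held 28.5 normalised tags at 24 h and 17.1 at 4 h, and NYAP1 12.5 at 24 h and 19.4 at 4 h. CBFA2T3, a transcriptional corepressor gene, held 24.4 at 24 h and 31.9 at 4 h, with 12 regions in the gene at 24 h and 10 at 4 h. Of these 8 places UBAC1 had the highest ratio of 24 h to 4 h tags, over a region 790 bp wide at 24 h and 500 bp at 4 h.

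The highest tag ratio came from a pair of unequal width. The widest pair lay within 2 kb of the 3′ end of ADGRA1, an adhesion G protein-coupled receptor gene, where a 24 h region of 3041 bp (chr10:133127066-133130107) held 48.7 normalised tags and the 4 h region of 500 bp inside it 9.68. Their folds were 4.2 (2.58 to 7.15) at 24 h and 5.36 (1.55 to 28.6) at 4 h. The next widest pairs, on chromosomes 22 and 1, had no protein-coding gene within 2 kb. The highest-scoring pairs lay on chromosome 7 without a gene, in ZC3H3, a zinc finger gene (24.9 normalised tags at 24 h and 27.9 at 4 h), and within 2 kb of the 3′ end of CEP131, a centrosomal gene (23.8 at 24 h and 27.9 at 4 h).

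Regions with many tags were called at both times more often than regions with few. With each list cut into 10 equal groups by normalised tags, 6.83% of the highest group of the 24 h list and 2.20% of the lowest overlapped a 4 h region. In the 4 h list 13.4% of the highest and 2.90% of the lowest group overlapped a 24 h region. With the groups made by fold over input there was no such order. In the 24 h list 31 of 1362 regions in the highest, 59 of 1361 in the fifth and 56 of 1361 in the lowest group overlapped a 4 h region, and in the 4 h list 4.29% of the highest, 8.58% of the fifth and 4.04% of the lowest overlapped a 24 h region. Input tags were few, with a median of 4 per region at 24 h and 3 at 4 h.

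The 24 h regions lay at transcription starts more often than the 4 h regions. Within 2 kb of a RefSeq transcription start lay 9.93% of 24 h regions (9.43 to 10.5) and 6.62% of 4 h regions (6.07 to 7.20). Among regions with a fold of 5 to 6 the shares were 9.59% at 24 h (8.53 to 10.7) and 8.07% at 4 h (6.74 to 9.56). Those intervals overlap, and the intervals at lower and at higher folds did not. In control cells, 4.67% of H3.1 regions and 8.41% of H3.3 regions (7.86 to 8.99) lay there. For H3.3 after D-alanine the share was 5.26% at 4 h and 4.43% at 24 h. Nearness to starts was thus also found in a list from untreated cells. Shared regions were close to the 24 h share, at 9.83% on the 24 h side and 9.60% on the 4 h side, with intervals of 7.40 to 12.7 and 7.21 to 12.5. Between the classes, 9.94% of 24 h-only and 6.40% of 4 h-only regions lay at a start. At gene 3′ ends the difference was smaller, with 7.61% of 24 h regions (7.17 to 8.08) and 6.09% of 4 h regions (5.57 to 6.65) within 2 kb. Gene bodies were overlapped by 61.4% of 24 h regions and 57.6% of 4 h regions. Starts and promoter windows exclude chromosome 8, whose promoters were not used here.

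The excess was centred just inside genes. From the start to 500 bp downstream, the 24 h list had 21.4 region centres per 1000 starts (339 centres) and the 4 h list 6.45 (102 centres). In the 500 bp upstream of the start there were 185 centres at 24 h and 53 at 4 h. Relative to list length, the downstream bin held 2.59% of 24 h regions and 1.33% of 4 h regions. Both lists thus peaked in the first 500 bp of genes, and the control list, with 0.522% of its regions in that bin, did not.

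**Figure D2:**
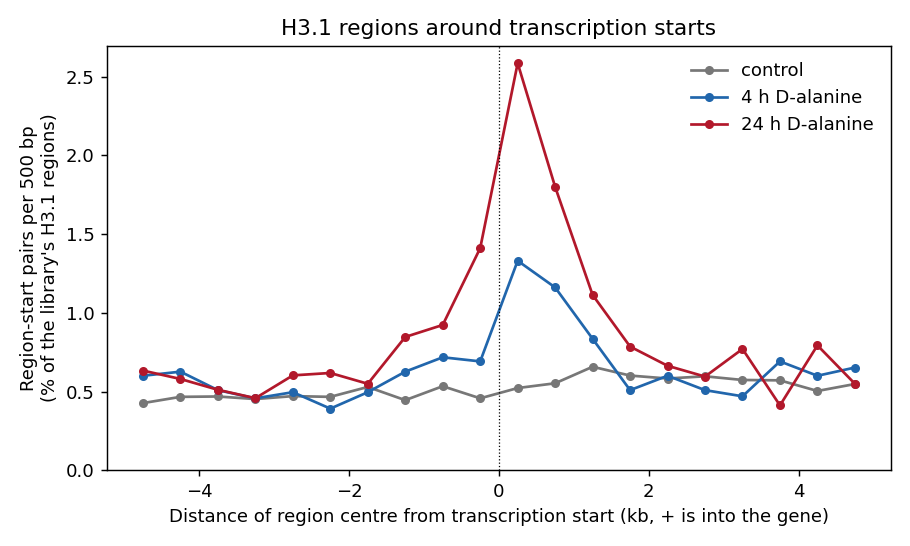
Region centres by distance from a transcription start, in bins of 500 bp (horizontal axis, kb, positive into the gene), as a percentage of each library's H3.1 regions off chromosome 8, for control cells (grey), 4 h (blue) and 24 h (red). The 24 h line peaks at 2.59% and the 4 h line at 1.33% in the first bin of the gene, where the control line is at 0.522%.

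At the promoter windows themselves, 409 of 15812 (2.59%) held a region at 24 h and 122 (0.772%) at 4 h, a ratio of 3.35 against 1.72 for the number of regions. Only 14 windows held a region at both times, 395 at 24 h only and 108 at 4 h only. As a share of regions, 2.98% of the 24 h list (2.70 to 3.29) and 1.55% of the 4 h list (1.29 to 1.86) overlapped a promoter window. Among regions with a fold of at least 6 these shares were 2.36% (1.83 to 2.99) and 0.926% (0.519 to 1.52), and among regions 500 bp wide 2.67% and 1.24%. With the 24 h list held to as many highest-scoring regions as the 4 h list has, its share was 3.62% (3.21 to 4.06). In control cells, 0.891% of H3.1 regions and 2.35% of H3.3 regions (2.05 to 2.67) overlapped a promoter window. For H3.3 after D-alanine the share was 0.689% at 4 h and 0.828% at 24 h.

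Windows with a treated H3.1 region were rich in GC. Median GC content was 68.0% at 24 h and 67.0% at 4 h, against 62.7% over all windows and 57.7% over windows with a control H3.1 region. The median number of CpG in the 300 bases was 26 at 24 h and 22 at 4 h, with 22 over all windows and 8 at control regions. A GC box stood in 72.9% of 24 h windows (68.3 to 77.1) and in 63.9% of 4 h windows (54.7 to 72.4), against 58.5% of all windows and 36.4% of windows with a control region. DUSP3 and DCHS2, printed above, are of this kind, and LAT and NLRP5 are not.

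Windows were then cut into 4 groups of like size by GC content. From the lowest to the highest group, 24 h windows numbered 37, 81, 116 and 175, and 4 h windows 5, 32, 44 and 41. The highest group held a region at 24 h in 4.57% of windows (3.93 to 5.28) and at 4 h in 1.07% (0.770 to 1.45). In control cells the order was another one, with 94, 233, 47 and 19 windows. More windows held a region at 24 h than at 4 h in each group. GC content also moves read counts in sequencing libraries, and its part in these numbers was not tested.

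Other motifs were searched on both strands in the same windows. The AP-1 motif TGANTCA stood in 4.65% of 24 h and 2.46% of 4 h windows (5.76% of all). The antioxidant response element core TGACNNNGC, read by NRF2 with small MAF proteins, stood in 12.0% of 24 h and 15.6% of 4 h windows (14.3% of all). The CCAAT box CCAAT stood in 27.4% of 24 h and 27.9% of 4 h windows (36.3% of all), and the TATA box TATAAA in 5.87% of 24 h and 9.84% of 4 h windows (9.64% of all). The AP-1 and antioxidant motifs can overlap in their first bases. The intervals of the CCAAT share (23.1 to 32) and the TATA share (3.8 to 8.61) of the 24 h windows lay below the values of all windows, and the other intervals held them. A match is a description of the letters, not a binding site.

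By gene, the 24 h list reached 5673 of 19974 protein-coding genes (28.4%) and the 4 h list 3420 (17.1%). Both lists reached 1927 genes (9.65%), the 24 h list alone 3746 (18.8%) and the 4 h list alone 1493 (7.47%). Of the 4 h genes 56.3% also held a 24 h region, and of the 24 h genes 34.0% also held a 4 h region. In only 346 of the 1927 genes (18.0%) did the regions of the 2 times overlap, so most genes in both lists held regions at different places. Genes in both were long, with a median length of 59.2 kb, against 31.8 kb for 24 h-only, 31.7 kb for 4 h-only and 24.2 kb for all genes. Over 4 equal groups of genes from short to long, the share of 4 h genes with a 24 h region was 31.1%, 48.2%, 57.5% and 67.5%. A control H3.1 region lay in 85.9% of genes in both, 58.8% of 24 h-only and 62.0% of 4 h-only genes, and 44.3% of all genes.

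Among genes with a region at 24 h and none at 4 h, the firmest enrichment lay at ZNF385D, IKZF1, ZFR2, AIF1L, AJAP1, KLF5, ARL15 and BSPH1. The ZNF385D region (chr3:22008272-22008772) held 19 ChIP tags and no input tag, at least 6.82-fold over input when 3 input tags are taken as the floor. IKZF1, the gene of the lymphoid transcription factor Ikaros, held 24.4 normalised tags with a fold of 14.7 (4.70 to 74.3). Near the 3′ end of KLF5, a transcription factor gene of basal epithelia, the region (chr13:73075567-73076067) held 16 ChIP tags and no input tag, at least 5.74-fold over input. AIF1L and AJAP1, the gene of an adherens junction-associated protein, had the same tag numbers and bound as KLF5. The ZFR2 region held 25 ChIP tags and 1 input tag, a fold of 26.9 (4.41 to 1105). The regions at ARL15 and BSPH1 were at least 5.38-fold over input.

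The genes with the most 24 h regions and no 4 h region were KIF26B and ITPK1 with 9 each, RASGEF1C with 8, ANKS1A with 7 and TXNRD2, the mitochondrial thioredoxin reductase gene, with 6. KIF26B, a kinesin family gene of 554 kb, also held 39 control regions, and ITPK1, an inositol phosphate kinase gene, 25. TXNRD2 held 4 control regions, and its firmest 24 h region (chr22:19918492-19918992) had 17.2 normalised tags with a fold of 5.20 (2.12 to 15.3).

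Among genes with a region at 4 h and none at 24 h, the firmest enrichment lay at FASTKD5 with UBOX5, NPTN, C1QTNF4 with FAM180B, DCHS2, APC, BOC, ACTN1 and FUNDC1. A region (chr20:3158307-3158807) lay within 2 kb of an end of FASTKD5, a mitochondrial RNA processing gene, and of UBOX5, a ubiquitin ligase gene. It held 15 ChIP tags and no input tag, at least 4.73-fold over input. NPTN, a synaptic adhesion gene, had the same tag numbers. APC, the gene of the scaffold that targets beta-catenin for destruction, and BOC, a hedgehog co-receptor gene, were at least 4.42-fold over input with 14 ChIP tags each. ACTN1, an actinin gene, held 25 ChIP tags and 2 input tags, a fold of 11.8 (2.95 to 103). C1QTNF4 and FAM180B shared a region of 28 ChIP tags and 2 input tags, a fold of 13.3 (3.34 to 115). The genes with the most 4 h regions and no 24 h region included EXD3 with 8 and KIF1C with 4.

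Gene lists were read against the shares over all genes, 28.4% at 24 h and 17.1% at 4 h. Members named below beyond the 4 with the firmest enrichment in each list were chosen after their values were seen. Among immediate-early transcription factors, 10 of 25 held a region at 24 h (40%, 21.1 to 61.3) and 2 at 4 h (8%, 0.984 to 26.0), with none in both. The 24 h members were MAFK, a small MAF gene, EGR1, EGR3 and EGR4, JUN, JUNB, FOSL1, FOSL2, KLF10 and SRF, and the 4 h members were EGR2 and NR4A1. EGR1 (chr5:138465859-138466359, within 2 kb of its 5′ end) held 18.4 normalised tags at 24 h, a fold of 5.56 (2.29 to 16.3). JUN (chr1:58783045-58783672, within 2 kb of its 5′ end) held 29.7 at a fold of 4.14 (2.22 to 8.31), and MAFK 29.7 at a fold of 4.89 (2.52 to 10.4). EGR2 (chr10:62814785-62815285) held 9.68 normalised tags at 4 h, a fold of 4.02 (1.31 to 16.4). The shares at 24 h and 4 h have intervals that hold the shares of all genes. Of all genes 9.65% were in both, and the 0 of this list has an upper limit of 13.7%.

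Genes of receptor tyrosine kinase, Src and MAPK signalling held a region in 21 of 46 cases at 24 h (45.7%, 30.9 to 61.0) and 10 at 4 h (21.7%, 10.9 to 36.4), 7 of them in both. SRC, the cellular counterpart of v-Src, held 1 region at 24 h, of 16.6 normalised tags and a fold of 7.53 (2.64 to 29.6). SRC held 3 at 4 h, the firmest, at another place, of 14.8 normalised tags and a fold of 4.92 (1.86 to 16.4). BCAR1, a Src substrate and adaptor gene, held 3 at 24 h and 1 at 4 h. ERBB2, a receptor tyrosine kinase gene whose 3′ end region is also that of MIEN1, and DUSP4, a MAP kinase phosphatase gene, held regions at 24 h only, with folds of 8.61 (2.62 to 44.7) and 6.28 (2.61 to 18.3). INSR, FGFR3 and PDGFRB, receptor genes, were the only 3 members with regions at 4 h only. The 14 members at 24 h only included the receptor genes IGF1R, FGFR1, PDGFRA, EGFR and ERBB3. The list's median gene length was 44.1 kb, against 24.2 kb for all genes. Its 24 h interval lies above the share of all genes, and its 4 h interval holds theirs. In control cells the share was also high, at 30 of 46 (65.2%, 49.8 to 78.6) against 44.3% of all genes. EGFR alone held 29 control regions.

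Developmental regulators were frequent in both lists although their genes are short (median 7.65 kb). Homeobox and other developmental transcription factors held a region in 34 of 67 cases at 24 h (50.7%, 38.2 to 63.2) and 25 at 4 h (37.3%, 25.8 to 50.0), with 15 in both. GATA2, a factor of blood progenitors, held a 24 h region of 15.4 normalised tags and 1 input tag, a fold of 28.0 (4.60 to 1148), and a 4 h region of 14.2 normalised tags, a fold of 4.73 (1.78 to 15.8), at another place in the gene. POU3F2, a neural factor, held regions at 24 h only, the firmest of 22.6 normalised tags and a fold of 5.84 (2.58 to 15.5). TLX3 and MNX1, homeobox genes of neurons, held regions at 4 h only, with 40.4 and 30.7 normalised tags in the firmest. Both shares lay above those of all genes with intervals that exclude them. The same held for H3.1 regions of control cells, which lay at 41 of the 67 (61.2%, 48.5 to 72.9), against 44.3% of all genes.

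HOX cluster genes, which set position along the body axis, held a region in 15 of 39 cases at 24 h (38.5%, 23.4 to 55.4) and 3 at 4 h (7.69%, 1.62 to 20.9). Neighbouring HOX genes share regions, and the counts rest on 15 distinct regions at 24 h and 2 at 4 h. The firmest lay inside HOXA3 and within 2 kb of the 5′ end of HOXA4 (chr7:27129723-27130223), with 27.9 normalised tags and a fold of 4.60 (2.35 to 9.84) at 24 h. HOXB8 and HOXC12 held regions at 24 h only. HOXB5 was the only HOX gene with a region at 4 h alone, in a region of 17.6 normalised tags that also lay within 2 kb of HOXB3.

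Cytosolic ribosomal protein genes, short and highly expressed, held a region in 8 of 75 cases at 24 h (10.7%, 4.72 to 19.9) and 0 at 4 h, with an upper limit of 4.80%. The 24 h members included RPS21, RPS29, RPS7, RPL7A, FAU, RPL13 and RPS20. The RPS7 region (chr2:3576937-3577569, within 2 kb of the 5′ end) held 16 ChIP tags and 2 input tags, a fold of 8.61 (2.03 to 77.2), and RPS29 held the same tag numbers. RPS21 held 13.7 normalised tags with a fold of 6.19 (2.12 to 24.6). Both shares lay below those of all genes, and the median gene length of the list was 5.01 kb. In control cells the share was also low, at 20.0% (11.6 to 30.8) against 44.3% of all genes.

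The antioxidant and DNA repair lists bear on the oxidant treatment. NRF2 targets and antioxidant enzymes held a region in 13 of 53 cases at 24 h (24.5%, 13.8 to 38.3) and 3 at 4 h (5.66%, 1.18 to 15.7), with none in both. The 24 h interval holds the share of all genes, 28.4%, and the 4 h interval lies below theirs, 17.1%. Of all genes, 9.65% were in both. At 24 h they included GSR, glutathione reductase, TXN, thioredoxin, TXNRD2 and TXNRD3, GPX1 and GPX4, SOD2, KEAP1, the NRF2 inhibitor, MAFG, MGST1, GSTM1 and GSTM3, and at 4 h OSGIN1, TALDO1 and TKT, the last a pair of pentose phosphate enzymes. GSR held 13 ChIP tags and no input tag, at least 4.67-fold over input, and TXN 19.6 normalised tags with a fold of 4.44 (2.01 to 11.1). GPX4 held 23.8 at a fold of 4.30 (2.12 to 9.66), within 2 kb of the 3′ end that it shares with SBNO2. GSTM1 has near-identical neighbours, so its reads are uncertain.

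Genes of oxidative DNA damage and double-strand break repair were the list with at least as many members at 4 h (12 of 51, 23.5%, 12.8 to 37.5) as at 24 h (11, 21.6%, 11.3 to 35.3), and 4 were in both. LIG1, the replicative DNA ligase gene, held 18.4 normalised tags at 24 h and 11.4 at 4 h in overlapping regions, with folds of 4.17 (1.88 to 10.5) and 4.73 (1.58 to 19). NTHL1, a DNA glycosylase gene, and CDKN1A, the cell cycle inhibitor p21, held one at 24 h only. POLB, XRCC1 and PARP2, of base excision and single-strand break repair, held regions at 4 h only. The intervals at 24 h and 4 h hold the shares of all genes.

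Epithelial identity genes held a region in 13 of 45 cases at 24 h (28.9%, 16.4 to 44.3) and 5 at 4 h (11.1%, 3.71 to 24.1). KLF5, described above, LAMA3 and LAMB3, laminin subunits of the epithelial basement membrane, and ST14, the protease matriptase, held regions at 24 h only. The LAMB3 region held 22 normalised tags with a fold of 4.42 (2.10 to 10.4). GRHL2, GRHL3 and ITGB4 held one at 4 h only, and CDH1, E-cadherin, and KRT19 at both times. Genes of the epithelial-mesenchymal transition and mesenchyme held a region in 13 of 45 cases at 24 h (28.9%) and 6 at 4 h (13.3%, 5.05 to 26.8). COL5A1, a fibrillar collagen gene, held 16 regions at 24 h and 14 at 4 h, and COL6A1 4 at 24 h and 2 at 4 h, among them an overlapping pair with 19 normalised tags at 24 h and 19.9 at 4 h. MMP9, a gelatinase gene, held one at 24 h only, of 22 normalised tags, and SNAI1, a repressor of E-cadherin, one at 4 h only, of 12.5. Both lists stood near the shares of all genes at each time.

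Wnt pathway genes held a region in 21 of 50 cases at 24 h (42.0%, 28.2 to 56.8) and 12 at 4 h (24.0%, 13.1 to 38.2). WNT9B, a ligand gene, and DKK3, a Dickkopf family gene, held regions at 24 h only, with folds of 23.7 (3.83 to 978) and 17.2 (2.68 to 723) over 1 input tag each, and the WNT9B region also lay inside LRRC37A2. APC and the ligand gene WNT3A held one at 4 h only, with a fold of 7.57 (2.68 to 29.5) at WNT3A. ABC transporters, many of which move lipids or drugs across membranes, held a region in 12 of 25 cases at 24 h (48.0%, 27.8 to 68.7) and 7 at 4 h (28.0%, 12.1 to 49.4). ABCA1, a cholesterol exporter gene, held regions at 24 h only, the firmest within 2 kb of its 5′ end with 25.5 normalised tags and a fold of 5.78 (2.69 to 14.3). ABCB8 was at least 4.67-fold over input at 24 h only. ABCC4 held 28.5 normalised tags near its 5′ end at 24 h and 8.54 elsewhere in the gene at 4 h. The firmest ABCA2 regions also lay at different places. They held 29.7 normalised tags over 1251 bp at 24 h and 18.2 over 500 bp at 4 h. Median gene length was 84.4 kb in the transporter list and 27.5 kb in the Wnt list.

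H3 chaperone genes held a region in 5 of 26 cases at 24 h (19.2%, 6.55 to 39.4) and 3 at 4 h (11.5%, 2.45 to 30.2). CABIN1, a subunit of the HIRA complex, held 2 regions at 24 h and 1 at 4 h, at different places. UBN1, of the same complex, CDAN1, DAXX, the H3.3 chaperone, and TONSL held regions at 24 h only. CHAF1A, the large CAF-1 subunit, and IPO4, an importin of histones, held one at 4 h only. The UBN1 region held 19 normalised tags with a fold of 4.30 (1.94 to 10.8), near 5′ ends of both UBN1 and GLYR1.

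Synapse and channel genes, which mammary epithelium is not expected to express, had the highest share of the lists at both times, 34 of 54 at 24 h (63.0%, 48.7 to 75.7) and 28 at 4 h (51.9%, 37.8 to 65.7), with 22 in both. Their median length was 118 kb, and 47 of them held a control H3.1 region. DLGAP2, a postsynaptic scaffold gene, held 27 regions at 24 h and 13 at 4 h. CACNA1H, a T-type calcium channel gene, held 10 at 24 h and 8 at 4 h. Its firmest regions, at different places, held 25.5 normalised tags at 24 h, a fold of 5.14 (2.47 to 12), and 29 at 4 h, a fold of 6.03 (2.84 to 14.7).

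**Figure D3:**
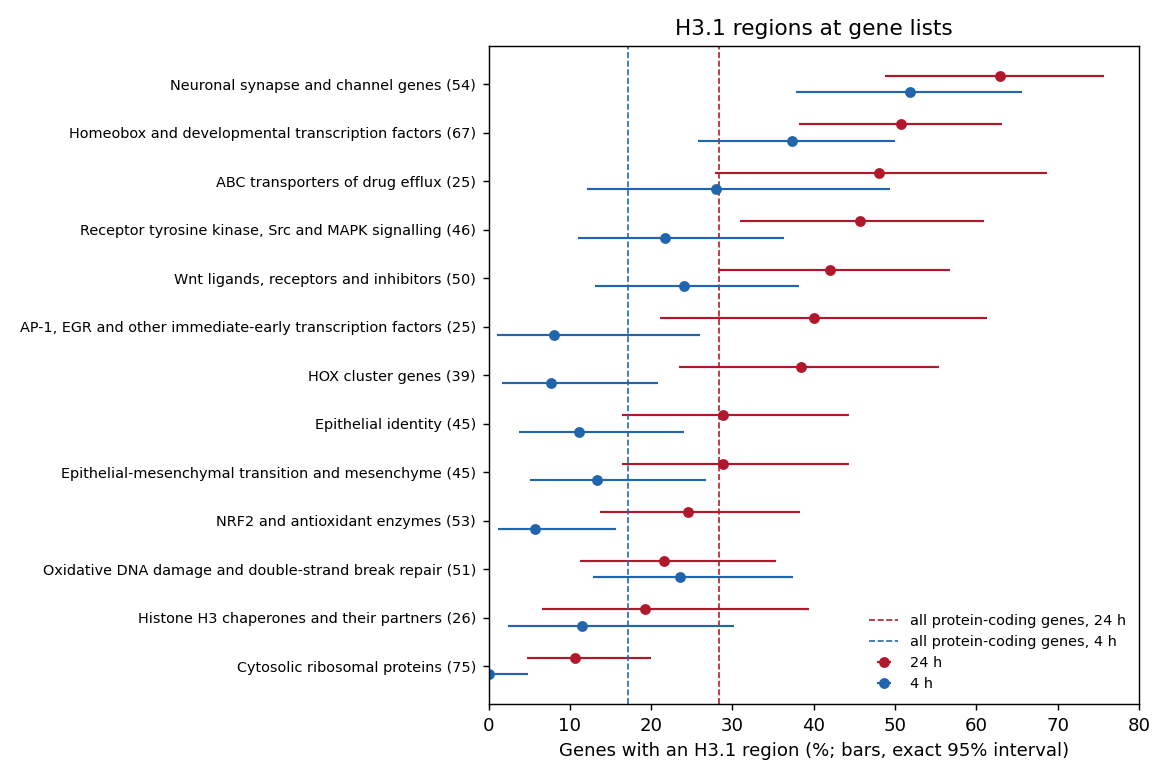
Share of the members of each gene list (number of members in brackets) with an H3.1 region at 24 h (red) and at 4 h (blue), with exact 95% intervals as bars; dashed lines mark the shares of all protein-coding genes, 28.4% at 24 h and 17.1% at 4 h. Synapse and channel genes are highest, at 63.0% and 51.9%, and ribosomal protein genes lowest, at 10.7% and 0%.

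The classes were also placed in the other region lists of the study. Shared regions met an H3.3 region of control cells more often than the others did, at 12.8% (10.1 to 15.9), against 5.74% of 24 h-only regions (5.35 to 6.16) and 5.22% of 4 h-only regions (4.72 to 5.75). Among regions 500 bp wide the shares were 11.3%, 4.77% and 4.45%, so the difference is there at equal width. H3.3 regions at 4 h were met by 4.46% of shared, 1.55% of 24 h-only and 1.71% of 4 h-only regions. Among regions 500 bp wide these were 2.89% of shared (1.45 to 5.11), 1.38% of 24 h-only (1.16 to 1.62) and 1.56% of 4 h-only regions (1.27 to 1.90), with intervals that overlap. Toward the long H3.3 list of 24 h the order was another one, with 2.42% of shared (1.29 to 4.10), 4.21% of 24 h-only (3.87 to 4.57) and 5.43% of 4 h-only regions (4.93 to 5.97). H3.1 regions of control cells were met by 6.88% of shared, 6.74% of 24 h-only and 8.57% of 4 h-only regions. In none of the 4 other lists were 75.7% of shared, 83.5% of 24 h-only and 81.2% of 4 h-only regions.

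**Figure D4:**
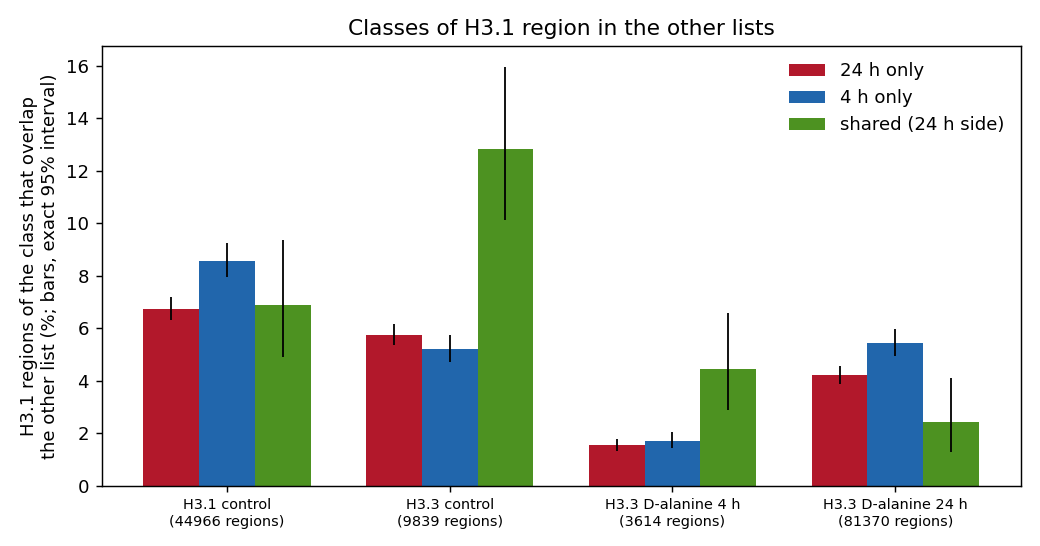
Share of 24 h-only (red), 4 h-only (blue) and shared (green, 24 h side) H3.1 regions that overlap a region of each other list, with exact 95% intervals as bars; the number of regions in each list is given under its name. Shared regions stand highest for the H3.3 control list, at 12.8%, and lowest for the H3.3 24 h list, at 2.42%.

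The ratio of 24 h to 4 h regions was 1.72 over the genome and differed between chromosomes. It was lowest on chromosome X, with 346 regions at 24 h and 286 at 4 h (1.21, 1.03 to 1.42), then on chromosome 19, with 894 at 24 h and 621 at 4 h (1.44, 1.30 to 1.60). It was highest on chromosome 21, at 2.22 (1.76 to 2.82), and chromosome 13, at 2.22 (1.83 to 2.69). The intervals of chromosomes X and 19 lie below the ratio of the genome, and those of 13, 15, 18 and 21 above it, with lower bounds of 1.72 for 15 and 18 that only just exceed it. Mean input tags per region on chromosome X were 3.85 at 24 h and 3.58 at 4 h. Copy number of chromosomes in these cells was not analysed here.

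**Figure D5:**
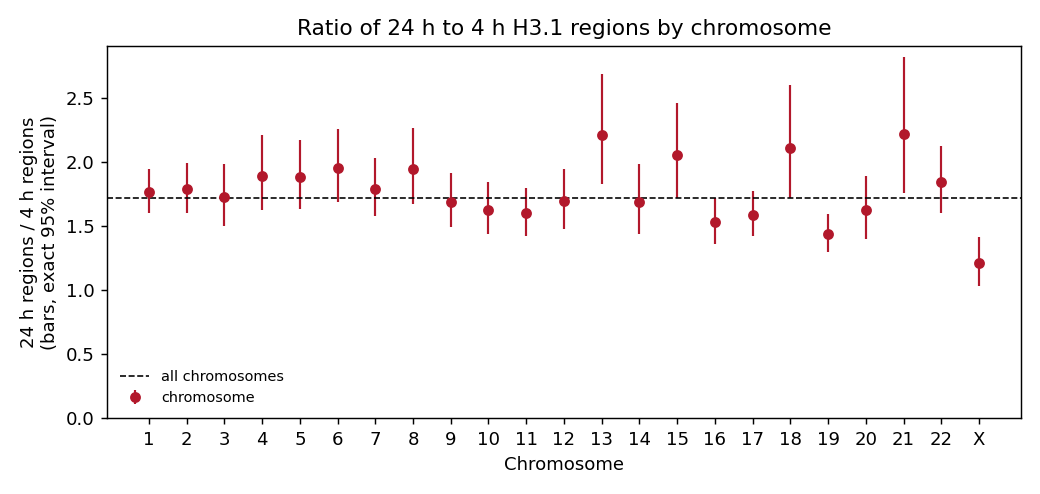
Ratio of the number of 24 h to 4 h H3.1 regions by chromosome (vertical axis from 0), with exact 95% intervals as bars; the dashed line marks 1.72, the ratio over all chromosomes. Chromosome X is lowest at 1.21, and chromosomes 13 and 21 are highest at 2.22.

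At the scale of 1 Mb the lists shared more of the genome than at the scale of single regions. Of 2822 bins, 1691 held regions of both times, 716 held 24 h regions only and 187 held 4 h regions only. Across bins the region counts of the 2 times had a Spearman rho of 0.641 and a Pearson r of 0.889. This is a description, since bins differ in gene content, base composition and mappability, and both counts also followed the number of genes (rho 0.536 at 24 h and 0.493 at 4 h). The fullest 24 h bins were chr9:136000001-137000000, around NOTCH1 and TRAF2, with 78 regions at 24 h and 42 at 4 h, chr10:132000001-133000000, with INPP5A and NKX6-2, with 74 at 24 h and 50 at 4 h, and chr16:1000001-2000000, with CACNA1H and MAPK8IP3, with 73 at 24 h and 51 at 4 h.

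Some bins departed from the genome ratio. At chr22:50000001-51000000, which holds PLXNB2, MAPK11, MAPK12 and SHANK3, there were 45 regions at 24 h and 9 at 4 h. At chr21:45000001-46000000, with the collagen genes COL18A1 and COL6A1, there were 51 at 24 h and 16 at 4 h. The reverse was seen at chr12:34000001-35000000, which holds a single protein-coding gene, ALG10, with 12 at 24 h and 26 at 4 h. At chr19:50000001-51000000, with the kallikrein genes and SHANK1, there were 19 at 24 h and 30 at 4 h. These bins were the extremes of the difference in count and carry no test.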

How the data were processed

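ChIP-seq and input libraries were sequenced as single-end reads of 50 bases, per the labels' protocols. The submitters' processing notes name cutadapt 3.7, Bowtie2 2.4.1, HOMER 4.11.1 and hg38. Per the file headers, each ChIP library had its regions called by HOMER in histone style with the matched input as control, with peaks of 500 bp at least 1000 bp apart, a fold over input of 4 and a Poisson p-value of 1e-04. Libraries were not pooled for calling. The deposited signal was ChIP tags per 10000000 tags of the library. In the 24 h list the authors gave ChIP tags as counts and input tags scaled to the ChIP library. In the 4 h list the deposited ChIP tags were scaled to the input. The deposited score, fold (a ratio with 0 input tags taken as a fraction of a tag) and p-value are those of the authors' caller.

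Scaled tags were returned to whole tags, to a tolerance of 0.1, and input depth was recovered from the scaling. Within this precision the H3.1 input of 4 h had the same depth as the inputs of H3.3 in control cells and at 24 h, so 1 input used more than once and separate inputs cannot be told apart. Regions off chromosomes 1 to 22 and X (30 at 24 h and 27 at 4 h) were left out. Genes, and promoters for 15812 of 19259 protein-coding genes off chromosome 8 (82.1%, the first listed start of each), came from RefSeq tables of GRCh38.p14. Overlap, shares and intervals were computed with Python 3.11.15, pandas 2.3.3, numpy 2.4.6 and scipy 1.17.1, and were tested on simulated data. Genes were named by the lower bound of the exact interval of their region's fold: 8 each at both times, at 24 h only and at 4 h only, the 5 and 3 with the most regions at 1 time, up to 4 per gene list, and the 3 widest and 3 highest-scoring shared regions. Regions were called on the same tags, and the intervals make no allowance for that selection. The classes, gene lists and bins were chosen with earlier results of these data known. The 13 lists held 601 entries, and a gene may stand in more than 1. Some genes that the naming rule picks are not reported here.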

Additional observations from a re-analysis of the deposited data

How the results depend on the processing

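The count of shared regions moved most with the settings. With an overlap of at least 50% of both regions, 309 regions of each list were shared, and with a gap of up to 1 kb allowed 1074 of the 24 h and 1062 of the 4 h regions. With a fold over input of at least 6, 9 regions of each list were shared (0.541% of the 4 h list), leaving 2903 regions at 24 h only and 1655 at 4 h only. Genes then numbered 212 at both times, 1446 at 24 h only and 659 at 4 h only. With the 24 h list held to as many highest-scoring regions as the 4 h list has, 7538 regions and 2353 genes stood at 24 h only. At 4 h only there were then 7536 regions and 1917 genes, so the classes of region were near equal in size. With genes counted within 2 kb of either end alone, 357 were in both, 2433 at 24 h only and 859 at 4 h only. The fold minimum and the equal length keep fewer regions, and the gene ends a smaller window, by construction. The overlap and gap settings change only what counts as shared. Of 32 such values 16 stayed within 1.5 times, among them the 4 h-only counts at equal list length. The share at promoters was higher at 24 h than at 4 h under each setting run, though at folds of 5 to 6 the intervals overlapped. The settings for it and for region width in the other lists were chosen after seeing the data. No paired analysis was possible because each time had 1 library. With 1 library a side, no value has an error between cultures, and a median of 4 input tags per region at 24 h and 3 at 4 h limits each fold.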
